A study of Homo sapiens with 8 samples.

Results

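The genes described here are 10 markers that neuropathology and stem cell biology use to recognise astrocytes and glioma stem cells: GFAP, VIM, NES, S100B, CD44, SOX2, SOX9, ALDH1L1, AQP4 and SLC1A3. They were taken by name, each from the only probe set that the array annotation pairs with that gene alone, so 10 probe sets stand for 10 of 18417 genes. The values come from U373, an established human astrocytoma line, treated for 12 h with 10 nM progesterone together with 1 µM of the antiprogestin RU-486 (mifepristone), with RU-486 alone, with progesterone alone or with vehicle. Each of the 4 groups had 2 Affymetrix whole-transcript arrays, 8 in all. All cells were kept in hormone-stripped serum before treatment, so no group had the steroids of normal serum. Some label fields of these samples give a different RU number, which was taken to mean RU-486. The replicates are called biological, but nothing says that they came from separate cultures, and p-values then measure the spread between these samples, which may be technical. U373 is a single line, and some stocks that carry the name have been found to be a different glioblastoma line, a point on which the labels are silent.

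Astrocytes are recognised by the filament protein GFAP, by glutamate uptake through the transporters encoded by SLC1A3 and SLC1A2, and by water channels and folate enzymes of mature cells. Glioma stem cells share filaments and transcription factors with the neural progenitors of the developing brain, chiefly nestin and SOX2, and aggressive gliomas often carry the hyaluronan receptor CD44. The set therefore spans a mature end (GFAP, S100B, ALDH1L1, AQP4, SLC1A3) and a progenitor or mesenchymal end (NES, SOX2, VIM, CD44), with SOX9 acting in both.

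Replicates resembled each other less after progesterone than in the other groups. Over all genes the difference between replicates had an SD of 0.17 log2 units in the combination, 0.16 in RU-486, 0.35 in progesterone and 0.18 in vehicle. The fit used 1 spread per gene for all groups. Differences below are on the log2 scale of the deposited values, where a difference of 1 is a doubling. A gene is called at an adjusted p under 0.05 over all 18417 genes. Where the arrays of single groups are said not to overlap, this describes their order and is not a test. With so few arrays in a group, such an order can arise without an effect. Its share over all genes was counted only for all arrays with RU-486 against all without it.

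Signals above background were measured for 8 of the 10 genes. ALDH1L1 fell just short of the cut, the 95th percentile of the background, and AQP4 lay well inside the background. Both are from the mature end, whose other genes GFAP, S100B and SLC1A3 were among the 8. A probe set's brightness depends on its probes as well as on its RNA, so each gene was set against 341 olfactory receptor genes, most of them silent in other tissues. These had a median of 4.64, a 95th percentile of 6.22 and a maximum of 6.996. When the 8 arrays were averaged, 8 of the 10 genes lay above every one of the 341, where 60.8% of all genes did, and the same 8 lay above the 95th percentile, where 72.4% of all genes did. The count is thus near the share of all genes. VIM averaged 13.4, CD44 13.1, SOX2 12.0 and SOX9 10.9, S100B 9.59, SLC1A3 9.12, NES 8.65 and GFAP 7.54. Since these levels come from different probe sets, their order is not an order of RNA amounts.

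The other 2 genes were in the range of the background. ALDH1L1, a folate enzyme of mature astrocytes, averaged 6.19 ± 0.12 (SD, n = 8 arrays) and had 94.4% of the olfactory receptor genes below it, with 91.5% to 95.01% on single arrays. AQP4, the water channel of astrocyte endfeet, averaged 4.19 ± 0.10 (SD, n = 8) and had 30.5% below it, with 23.8% to 34.3% on single arrays. Its signal was therefore not above that of genes expected to be silent, and its differences are those of a dim probe set. Of the wider astrocyte list (32 genes, 30 measured), 24 lay above 6.22, beside 72.4% of all genes. SLC1A2, the second astrocyte glutamate transporter, averaged 5.21. KCNJ10, a potassium channel of astrocytes taken from a different list, averaged 5.31. Both of these lay under the 95th percentile. Of 26 measured glioma stem and neural progenitor genes, 23 lay above 6.22. Among the others was PROM1, the gene of the stem cell surface marker CD133, at 3.85. SLC1A2, KCNJ10 and PROM1 were chosen after their values were seen, while most measured genes of the astrocyte and progenitor lists lay above 6.22.

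**Figure D1:**
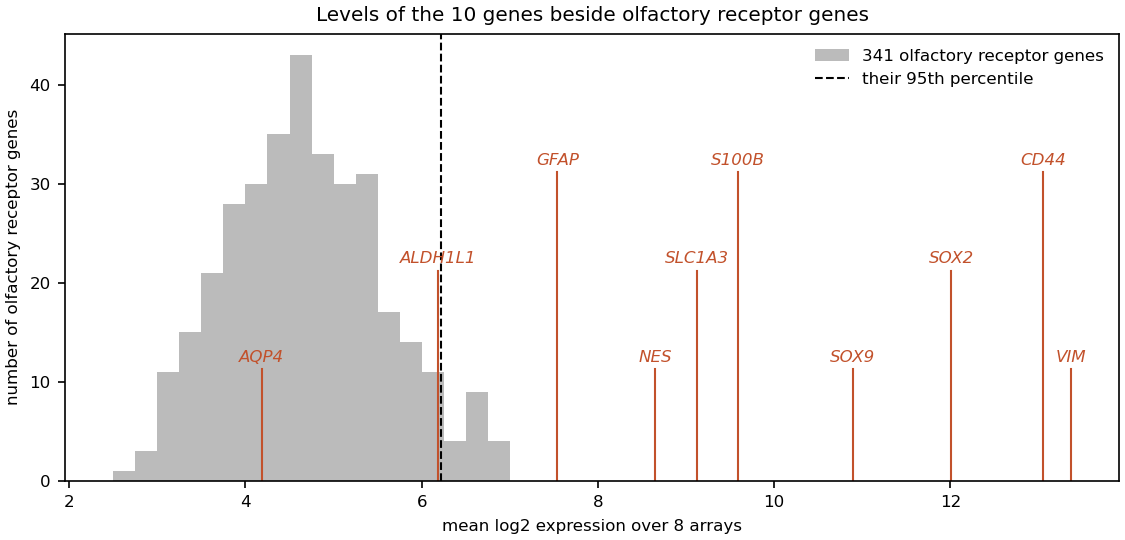
Mean log2 expression over the 8 arrays (horizontal axis) of 341 olfactory receptor genes, drawn as a histogram of gene counts (vertical axis), with a line for each of the 10 genes; line heights only separate the names, and the dashed line is the 95th percentile of the olfactory receptor genes at 6.22. AQP4 lies inside the histogram, ALDH1L1 at 6.19 beside the dashed line, and the other 8 genes to the right of all olfactory receptor genes.

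Markers of other cell types were read in the same way. Above 6.22 lay 6 of 11 measured neuron markers, 4 of 9 oligodendrocyte markers, 3 of 10 microglia and leukocyte markers, 2 of 9 endothelial markers, 6 of 9 epithelial markers and 6 of 10 fibroblast and pericyte markers, where 72.4% of all genes did. The mean log2 level of each list overlapped between the arrays with and without RU-486. For fibroblast and pericyte markers it lay between 6.83 and 6.89 with the drug and between 6.78 and 6.92 without it.

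Across the 4 treatments, SLC1A3 had the widest spread of group means of the 10 genes, 0.62 log2 units, and VIM and CD44 the narrowest, 0.02 each. VIM and CD44 are among the brightest genes on the array, and the 185 genes above the 99th percentile of level had a median spread of 0.09. Whether such bright probe sets could register a further increase was not tested. No member passed the F test, which asks whether a gene differs among any of the 4 groups (limma, 0 of 10 members and 0% of all genes called). SLC1A3 was the 1 member of 10 with an unadjusted p under 0.05, as 7.63% of all genes had. The distance between the highest and the lowest group mean had a median of 0.15 log2 units over the 10 genes and of 0.21 over all genes, and 6 of the 10 were under the median of all genes. Only SLC1A3 exceeded 1.5-fold between its group means, which 4.53% of all genes did.

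**Figure D2:**
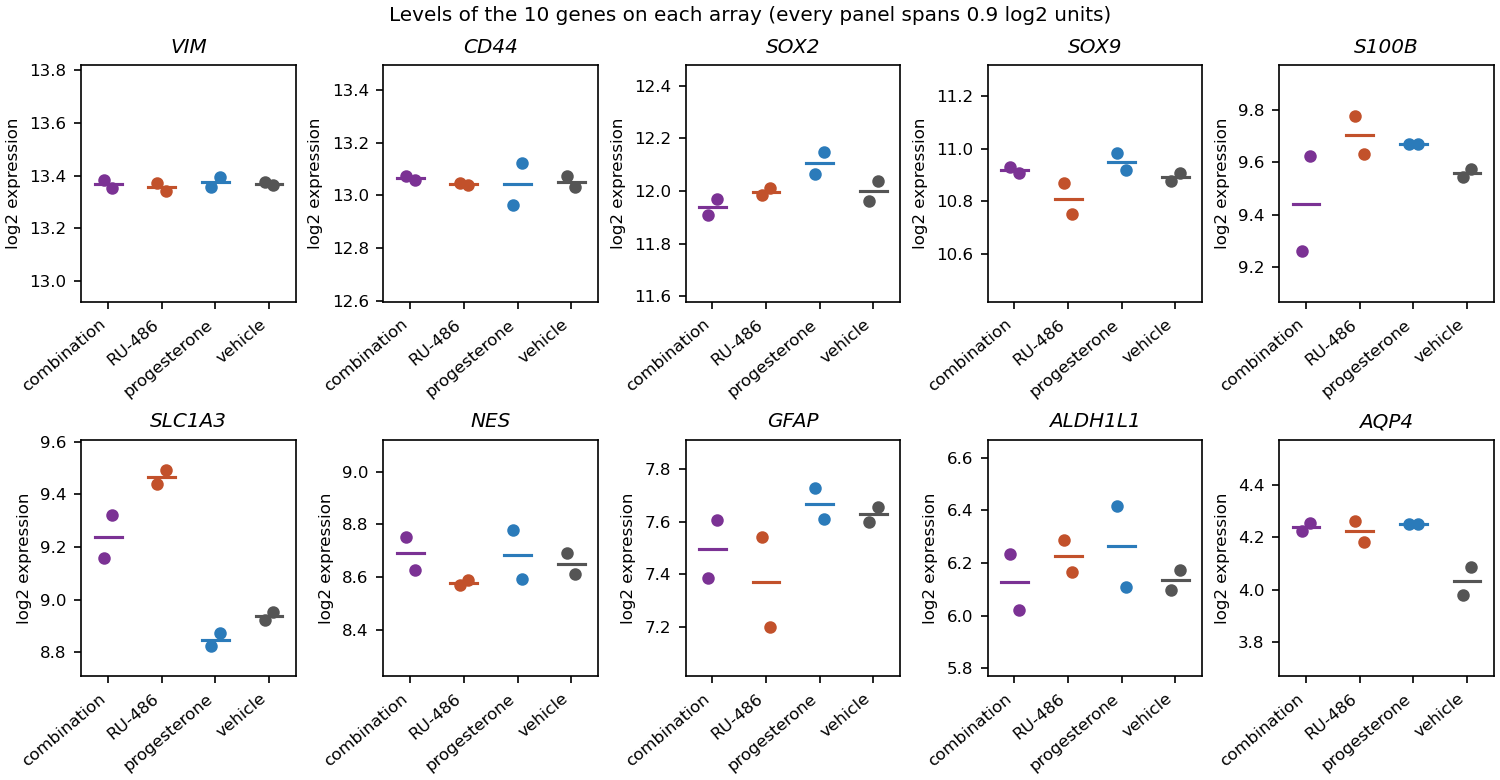
Log2 expression (vertical axis) of each of the 10 genes on each array in the combination, RU-486, progesterone and vehicle groups (horizontal axis); points are the 2 arrays of a group, bars their mean, and every panel spans 0.9 log2 units so that distances compare between panels. SLC1A3 is separated by RU-486 with means of 9.24 and 9.47 in the 2 groups with the drug and 8.85 and 8.94 in those without, while VIM and CD44 are almost level.

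The intermediate filament genes build the cytoskeleton of glial cells and their precursors. VIM, the filament of immature astrocytes and mesenchymal cells (probe set 7926368, chromosome 10), was at 13.38 and 13.35 in the combination, 13.37 and 13.34 in RU-486, 13.36 and 13.40 in progesterone, and 13.38 and 13.36 in vehicle. The 4 groups overlapped and all 8 arrays lay within 0.05 log2 units of each other. The average RU-486 effect, the 4 arrays with the drug minus the 4 without, was -0.01 with a 95% interval from -0.13 to 0.11.

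GFAP, the filament of mature and reactive astrocytes (probe set 8016128, chromosome 17), was at 7.39 and 7.61 in the combination, 7.54 and 7.20 in RU-486, 7.73 and 7.61 in progesterone, and 7.598 and 7.658 in vehicle. Both RU-486 arrays were below both vehicle arrays and both combination arrays below both progesterone arrays. Combination replicate 2 lay just above vehicle replicate 1, so the arrays with and without the drug overlapped. The mean was lower with RU-486 by 0.21 log2 units (difference -0.21, interval from -0.44 to 0.01), and this did not pass (limma adjusted p = 0.459). RU-486 alone against vehicle gave -0.26 with an interval from -0.57 to 0.06. The distance between the RU-486 replicates, 0.345, was larger than either difference. Without RU-486 replicate 1 the difference from vehicle was -0.43, and without RU-486 replicate 2 it was -0.08, while the average effect was -0.30 and -0.13 in that order.

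NES encodes nestin, the filament of neural progenitors (probe set 7921088, chromosome 1). It was at 8.75 and 8.63 in the combination, 8.57 and 8.59 in RU-486, 8.78 and 8.59 in progesterone, and 8.69 and 8.61 in vehicle. RU-486 alone was the lowest group by a narrow margin, and the other groups overlapped. The average RU-486 effect was -0.03 (interval from -0.19 to 0.13). Among 18 other filament genes measured, 0 lay under an unadjusted p of 0.05 in the F test, and the 3 with the smallest p were the muscle filament gene DES and the keratins KRT8 and KRT19, with average RU-486 differences of -0.10, -0.08 and -0.05. These moved by over 1.5 times with single arrays left out: DES to -0.06 without RU-486 replicate 2, KRT8 to -0.03 without RU-486 replicate 1, and KRT19 to 0.10 without progesterone replicate 1 and -0.20 without progesterone replicate 2.

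S100B, a calcium-binding protein that glial cells secrete (probe set 8071036, chromosome 21), was at 9.26 and 9.62 in the combination, 9.78 and 9.63 in RU-486, 9.67 and 9.67 in progesterone, and 9.54 and 9.58 in vehicle. Both RU-486 arrays were above both vehicle arrays, and both combination arrays were below both progesterone arrays. How many of all genes show such separations was not counted. The unadjusted limma p of S100B for RU-486 against vehicle was 0.29. The low value of combination replicate 1 lies 0.36 below its own replicate. The average RU-486 effect was -0.04 (interval from -0.25 to 0.17), and without combination replicate 1 it was 0.05. Among the 18 other S100 genes measured, 0 had an unadjusted p under 0.05 in the F test. The 3 with the smallest p were S100A11, S100A6 and S100A12, with average RU-486 differences of 0.09, 0.02 and 0.04, the last from a signal of 4.08, below the olfactory median. The sign for S100A6 and S100A12 changed in 2 alternatives each.

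CD44, the hyaluronan receptor (probe set 7939341, chromosome 11), was at 13.07 and 13.06 in the combination, 13.05 and 13.04 in RU-486, 12.97 and 13.12 in progesterone, and 13.07 and 13.03 in vehicle. The progesterone replicates enclosed all other arrays. The average RU-486 effect was 0.01 (interval from -0.13 to 0.14). There were 15 measured genes that make, bind or organise hyaluronan or act with CD44. Of these, 6 had a mean above 0 for the average RU-486 effect, where 62.5% of all genes did. At an unadjusted p under 0.05, 4 were lower, where 4.49% of all genes were. The median was -0.04. HAS2, a hyaluronan synthase, differed by -0.43 ± 0.13 (SE) and VCAN, the hyaluronan-binding proteoglycan versican, by -0.55 ± 0.20, neither of which passed (limma adjusted p = 0.421 and 0.434). Both genes also differed between the progesterone replicates, by -0.37 for HAS2 and -0.86 for VCAN (replicate 1 minus replicate 2), a distance of the same order as the drug difference or larger. The part of this variation in the drug difference was not tested. The others of the 4 were HMMR, a hyaluronan receptor that also acts at the mitotic spindle, at -0.87 with a replicate distance of -1.49, and RDX, which anchors CD44 to actin, at -0.44 with -0.70, both named after their values were seen. VCAN stood at -0.76 without progesterone replicate 1 and at -0.33 without progesterone replicate 2. SPP1, a secreted ligand of CD44, differed by 0.18 ± 0.09, and by 0.11 without progesterone replicate 2.

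SOX2 and SOX9 encode transcription factors of neural progenitors and glia, and each had group means within 0.17 log2 units. SOX2, which maintains neural stem cells (probe set 8084165, chromosome 3), was at 11.91 and 11.97 in the combination, 11.98 and 12.01 in RU-486, 12.07 and 12.15 in progesterone, and 11.96 and 12.04 in vehicle. Progesterone was the highest group and its arrays did not overlap with any other group. The average RU-486 effect was -0.08 (interval from -0.21 to 0.05), which did not pass (limma adjusted p = 0.588).

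SOX9, which directs the switch of progenitors to glia (probe set 8009517, chromosome 17), was at 10.93 and 10.91 in the combination, 10.87 and 10.75 in RU-486, 10.98 and 10.92 in progesterone, and 10.88 and 10.91 in vehicle. The 2 RU-486 arrays were the lowest, and the 4 arrays with progesterone lay above the 4 without, by a margin smaller than the distance between replicates. The average progesterone effect was 0.08 (interval from -0.05 to 0.22), which did not pass (limma adjusted p = 0.722). The average RU-486 effect was -0.06 (interval from -0.19 to 0.08). Of 17 further SOX genes, 0 were under an unadjusted p of 0.05 in the F test, and their median spread of group means was 0.23, beside 0.21 over all genes. SOX3, a close relative of SOX2, differed by 0.16 with RU-486, SOX12 by 0.12, and SOX5, a factor of neural development, by -0.42 ± 0.15 (limma adjusted p = 0.430). Without progesterone replicate 2, SOX3 stood at 0.09 and SOX12 at 0.07. SOX5 also differed by -0.54 between the progesterone replicates, and the part of that variation was not tested.

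ALDH1L1 (probe set 8090314, chromosome 3) was at 6.23 and 6.02 in the combination, 6.29 and 6.17 in RU-486, 6.42 and 6.11 in progesterone, and 6.10 and 6.17 in vehicle. All groups overlapped with vehicle. Its average RU-486 effect was -0.02 (interval from -0.24 to 0.19). AQP4 (probe set 8022655, chromosome 18) was at 4.22 and 4.25 in the combination, 4.26 and 4.18 in RU-486, 4.25 and 4.25 in progesterone, and 3.98 and 4.09 in vehicle. The 2 vehicle arrays were the lowest of the 8 and all 3 steroid groups lay above them without overlap.

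For AQP4 the difference from vehicle was 0.20 in the combination, 0.19 in RU-486 and 0.22 in progesterone, each with an interval of ± 0.19. These 3 comparisons share the vehicle arrays. None passed, with limma adjusted p of 0.374, 1.00 and 0.741 in that order. Since its level lies inside that of the olfactory receptor genes, these are shifts of a background-range signal. The 2 vehicle arrays also had the lowest array medians, 6.937 and 6.934, where the others lay between 6.952 and 7.024. With each array centred on its median, the AQP4 differences were 0.18, 0.16 and 0.16 in the same order. Their unadjusted limma p, 0.037, 0.04996 and 0.029 in the main fit, were then 0.073, 0.10 and 0.091. With renewed quantile normalization these p were 0.072, 0.086 and 0.053.

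SLC1A3 encodes EAAT1, known as GLAST, the transporter with which astrocytes and radial glia clear glutamate (probe set 8104930, chromosome 5). It was at 9.16 and 9.32 in the combination, 9.44 and 9.49 in RU-486, 8.82 and 8.87 in progesterone, and 8.92 and 8.95 in vehicle. All 4 arrays with RU-486 were above all 4 without it. The means were 9.24 ± 0.11 in the combination, 9.47 ± 0.04 in RU-486, 8.85 ± 0.03 in progesterone and 8.94 ± 0.02 in vehicle (SD, n = 2 arrays each).

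With RU-486 present SLC1A3 was higher by 0.46 ± 0.06 log2 units (SE, interval from 0.32 to 0.60), or 1.38-fold. Its rank by p was 18 of 18417 genes, and it did not pass after adjustment (limma adjusted p = 0.112). In this comparison 0 of the 10 members and 0.0326% of all genes were called. At an unadjusted p under 0.05 lay 1 member, SLC1A3, and 11% of all genes. All arrays with the drug above all without it were seen for 1 of the 10 members and 4.51% of all genes, and the opposite order for 0 members and 1.09%.

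The SLC1A3 difference was seen with and without progesterone. RU-486 alone against vehicle gave 0.53 ± 0.08 (SE) and the combination against progesterone 0.39 ± 0.08. The interaction, the difference between these effects, was -0.14 with an interval from -0.42 to 0.15, and did not pass (limma adjusted p = 0.830). The arrays of the combination were below those of RU-486 alone, and those of progesterone below those of vehicle. The average progesterone effect was -0.16 ± 0.06 (limma adjusted p = 0.722). In 15 alternative analyses the average RU-486 difference stayed between 0.42 and 0.50, with limma adjusted p between 0.0267 and 0.700, under 0.05 in 2 of them. It was 0.0403 in limma without progesterone replicate 1, where 998 genes were called, and 0.0267 with a prior spread that depends on the level, where 43 were. Without both progesterone arrays, an alternative added after seeing the data, the spread was estimated from the other 6 arrays, and RU-486 against vehicle, a difference that does not involve them, had a limma adjusted p of 0.456.

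**Figure D3:**
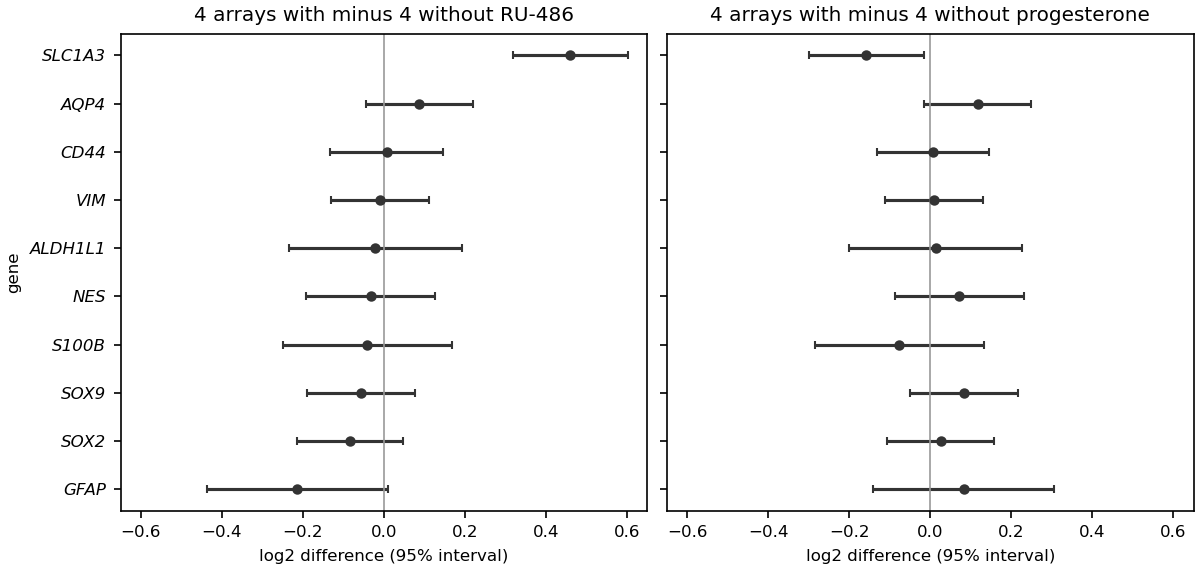
Log2 difference (horizontal axis) of each gene (vertical axis) between the 4 arrays with and the 4 without RU-486 (left) and between the 4 with and the 4 without progesterone (right); points are estimates and bars 95% intervals not adjusted for the number of genes. The RU-486 interval of SLC1A3, from 0.32 to 0.60, is the only one on the left that leaves out 0.

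The other comparisons gave no calls among the members. For RU-486 against vehicle 0 of 10 members and 0% of all genes were called, and at an unadjusted p under 0.05 lay 2 members, SLC1A3 and AQP4, and 3.1% of all genes. For progesterone against vehicle 0 members and 0% of genes were called, and 1 member, AQP4, and 6.13% of genes had an unadjusted p under 0.05. For the combination against vehicle 0 members and 0% of genes were called, and 2 members, SLC1A3 and AQP4, and 13.2% of genes had an unadjusted p under 0.05. The average progesterone effect had 0 calls, with 1 member, SLC1A3, and 5.03% of genes under an unadjusted p of 0.05, and the interaction had 0 calls, with 0 members and 5.28% of genes.

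For the 8 members other than SLC1A3 and AQP4, unadjusted 95% intervals, gene by gene, give a range for differences of array signal. Such intervals do not bound changes of RNA. ALDH1L1 was in the background range, and whether the bright VIM and CD44 could register an increase was not tested. Against vehicle, the differences of these 8 members lay between -0.13 and 0.04 in the combination. They lay between -0.26 and 0.14 in RU-486 and between -0.01 and 0.13 in progesterone. The half-width of their 95% intervals ran from 0.17 log2 units for VIM to 0.32 for GFAP. The lowest bound of any of these intervals was -0.57, for GFAP in RU-486, and the highest was 0.44, for S100B in RU-486. Over all genes the median difference of the combination from vehicle was 0.07, and the member differences were not corrected for it.

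Other genes of the SLC1A family also had higher means with RU-486. SLC1A4, a transporter of alanine, serine and cysteine, was at 9.99 and 9.79 in the combination, 9.65 and 9.87 in RU-486, 9.12 and 8.96 in progesterone, and 9.15 and 9.09 in vehicle. SLC1A5, the glutamine transporter ASCT2, was at 12.09 and 12.02 in the combination, 11.93 and 12.02 in RU-486, 11.73 and 11.47 in progesterone, and 11.70 and 11.44 in vehicle. Both separated the arrays with RU-486 from those without. The average RU-486 difference was 0.74 ± 0.08 for SLC1A4 (limma adjusted p = 0.0730), 0.43 ± 0.09 for SLC1A5 (limma adjusted p = 0.283) and 0.21 ± 0.05 for SLC1A1, a glutamate transporter of neurons and epithelia (limma adjusted p = 0.384). None passed here. SLC1A4 passed in 4 of 15 alternatives and SLC1A5 in 1, which was without progesterone replicate 1.

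Of the 18 measured genes in the list of glutamate transporters, aquaporins and their anchors, 4 had an unadjusted p under 0.05 in the F test, where 7.63% of all genes did. They were SLC1A1, SLC1A4, SLC1A5 and the water channel AQP1, which was lower with RU-486 by 0.22 (difference -0.22) without overlap of arrays and was named after its value was seen. The list median for RU-486 was 0.02, beside 0.03 over all genes. SLC1A2, SLC1A6 and SLC1A7, the transporters with the dimmest signals in the family, differed by -0.02, -0.01 and 0.10 with RU-486, at mean levels of 5.21, 6.28 and 6.12. These 3 were named after their values were seen.

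The upstream sequence of SLC1A3 was read beside that of SLC1A5 because both hold the letters TGATGCAA, the core of the C/EBP-ATF element that stress-activated factors such as ATF4 bind in amino acid response genes. RefSeq (GRCh38.p14) gives 3 starts for SLC1A3. The 250 bases before the first of them, chr5:36596338-36596587 on the plus strand, hold the core, with its first base 220 bases before the start. For SLC1A5 the 250 bases before the third of 3 starts, chr19:46784815-46785064 on the minus strand, hold it with its first base 97 bases before the start. Capitals mark the core in both sequences.
SLC1A3: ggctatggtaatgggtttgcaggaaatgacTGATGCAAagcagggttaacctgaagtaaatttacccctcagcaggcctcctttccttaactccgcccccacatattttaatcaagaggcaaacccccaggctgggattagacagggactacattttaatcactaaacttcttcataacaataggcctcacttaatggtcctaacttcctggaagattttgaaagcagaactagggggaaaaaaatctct
SLC1A5: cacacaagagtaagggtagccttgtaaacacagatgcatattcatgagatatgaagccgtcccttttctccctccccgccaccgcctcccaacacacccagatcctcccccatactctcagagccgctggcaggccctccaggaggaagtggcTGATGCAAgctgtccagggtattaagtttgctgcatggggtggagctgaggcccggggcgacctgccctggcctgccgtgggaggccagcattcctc

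Such a match is a description of letters and shows neither binding nor a cause. On either strand the core was found in 0.772% of 35116 windows of this length and in 0.967% of 27305 genes. Of the 10 members, 7 are in the sequence table, and SLC1A3 was the 1 with a match. GFAP, S100B and SOX9 are not in it. The other 2 windows of SLC1A3 and the windows of SLC1A1 and SLC1A4 had no match. The steroid receptor half-site AGAACA, searched on both strands, was in 12.4% of windows and in 0 of the 7 members' windows. The core was chosen after the values and the sequence had been seen.

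The enzymes around ALDH1L1 gave the highest median RU-486 difference of the 10 lists. Since the lists were chosen with earlier results of these data known, this rank is a description and not an independent test. Of 13 measured genes of folate and aldehyde metabolism, 12 had a mean above 0 with RU-486, 7 were higher and 0 lower at an unadjusted p under 0.05, where 6.53% of all genes were higher and 4.49% lower, and the median was 0.16, beside 0.03 over all genes, of which 62.5% were above 0. None was called. MTHFD2, a mitochondrial folate enzyme, differed by 0.59 ± 0.08 (limma adjusted p = 0.112) and SHMT2, the mitochondrial serine hydroxymethyltransferase, by 0.43 ± 0.07 (limma adjusted p = 0.235). Neither gene's arrays overlapped between those with and without the drug. ALDH1L1 itself, the cytosolic enzyme, stood at -0.02, and its mitochondrial counterpart ALDH1L2, at a dim 4.38, differed by 0.02. ALDH1L2 was chosen after its value was seen.

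**Figure D4:**
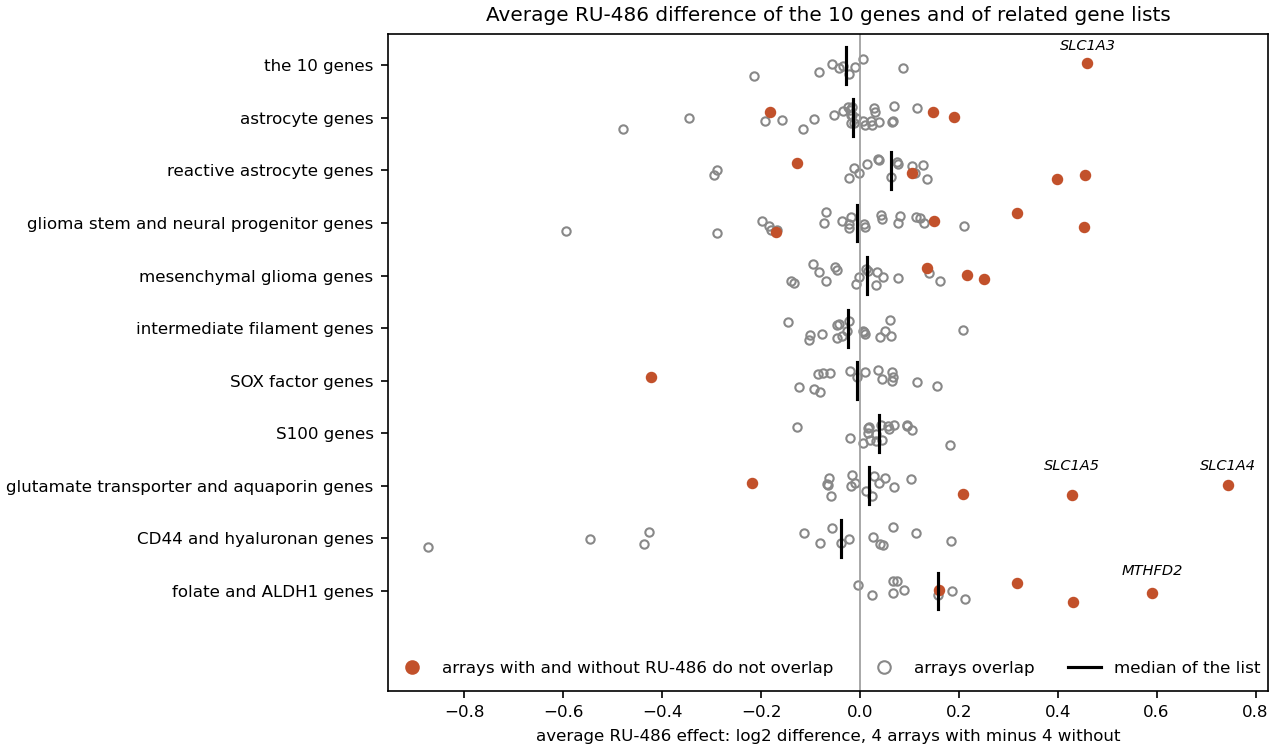
Average RU-486 effect as a log2 difference, 4 arrays with minus 4 without the drug (horizontal axis), for each measured gene of the 10 and of 10 related lists (vertical axis); filled points are genes whose arrays with and without the drug do not overlap, open points the rest, and bars list medians. SLC1A3 lies at 0.46 and the other 9 between -0.21 and 0.09, while SLC1A4 lies at 0.74.

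Among other astrocyte genes the picture was mixed. Of 30 measured, 1 was higher and 3 lower at an unadjusted p under 0.05 with RU-486, near the 11% of all genes under that p, with a median of -0.01. NFIA, a factor that starts gliogenesis, was at 9.06 and 9.30 in the combination, 9.55 and 9.76 in RU-486, 9.63 and 10.23 in progesterone, and 9.67 and 10.05 in vehicle. The combination arrays were the lowest. Its replicates differed by up to 0.60, in progesterone, and its average RU-486 difference of -0.48 ± 0.15 did not pass (limma adjusted p = 0.424). AGT, the astrocytic angiotensinogen, differed by 0.19 and GJA1, the gap junction protein connexin 43, by -0.16, and GJA1 by -0.07 without combination replicate 1.

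Reactive astrocyte genes had a median of 0.06 with 13 of 19 above 0, near the 62.5% of all genes. PTX3, a secreted pentraxin, was at 8.44 and 8.29 in the combination, 8.30 and 8.40 in RU-486, 7.87 and 7.89 in progesterone, and 8.14 and 7.95 in vehicle. It differed by 0.40 ± 0.07 with RU-486 and SERPINA3, an acute-phase protease inhibitor of reactive astrocytes, by 0.46 ± 0.12, with no overlap of arrays for either and no call (limma adjusted p = 0.235 and 0.384). CXCL10, an interferon-induced chemokine, differed by -0.29, and by -0.16 without progesterone replicate 2.

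Glioma stem and neural progenitor genes had a median of -0.01 with 13 of 26 above 0, and 3 were higher and 2 lower at an unadjusted p under 0.05. Over all genes 62.5% were above 0, 6.53% higher and 4.49% lower. HEY1, a Notch target that keeps progenitors undifferentiated, was at 9.92 and 9.68 in the combination, 9.72 and 9.62 in RU-486, 9.36 and 9.30 in progesterone, and 9.26 and 9.20 in vehicle. Its difference of 0.45 ± 0.07 separated the arrays and did not pass (limma adjusted p = 0.188). KLF4, a factor of pluripotent cells, differed by 0.32 and PTPRZ1, a receptor phosphatase of outer radial glia, by -0.59 ± 0.21, while the progesterone replicates of PTPRZ1 differed by -1.0002. It stood at -0.84 without progesterone replicate 1 and at -0.34 without progesterone replicate 2. The part of that variation was not tested.

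Mesenchymal glioma genes had a median of 0.01 with 11 of 20 above 0, and 4 were higher and 0 lower at an unadjusted p under 0.05, beside 62.5%, 6.53% and 4.49% of all genes for these counts. CEBPB and CEBPD, C/EBP factors that drive the mesenchymal state of gliomas, differed by 0.25 and 0.22 with no overlap of arrays, and LGALS3, galectin 3, by 0.14. Neither factor was called (limma adjusted p = 0.382 and 0.424). Without progesterone replicate 1, NFIA, PTX3, HEY1, KLF4, PTPRZ1, CEBPB, VCAN, MTHFD2 and SHMT2 passed among the 998 genes called there, and HEY1, MTHFD2 and SHMT2 also passed with the level-dependent prior.

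The genes most like SLC1A3 over the 8 arrays, among 13343 above the olfactory 95th percentile, were ACAA2, INTS14 and KLF10. Pearson's r was 0.97 for ACAA2, a thiolase of mitochondrial fatty acid oxidation, 0.96 for INTS14, a subunit of the Integrator complex, and 0.95 for KLF10, a transcription factor induced by TGF-beta. They differed by 0.30, 0.16 and 0.25 with RU-486. For AQP4, a background-range signal, the nearest were PGPEP1L, SLC22A17 and MIR22HG, with r of 0.97, 0.96 and 0.95. Their unadjusted p in the limma F test was 0.18, 0.11 and 0.30. How high r would be in such a search without any link was not tested. Over all pairs within the set, GFAP and SOX9 had the highest r, at 0.79, and SLC1A3 had an r of -0.70 with each of them. These values describe 8 arrays that share normalization and 4 treatments.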

How the data were processed

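Total RNA was profiled on Affymetrix Human Gene ST arrays. The authors deposited log2 expression values for 33297 probe sets, and the submitters' processing notes list the tools RMA, limma and oligo. As a method, RMA equalises distributions between arrays, so a shift shared by most genes would be removed, and differences of dim genes are compressed. The sources used here do not give any filter. The median of an array lay between 6.93 and 7.02, and the small number of arrays limits the precision.

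Groups and replicate numbers came from the sample titles. Of the probe sets, 19460 pair with 1 symbol, 1754 with several and 12083 with none listed. For 769 genes with several probe sets, that with the highest mean was kept, leaving 18417 genes, of which 18389 matched a RefSeq gene ID. A model of 4 group means over the 8 arrays was computed in R 4.3.3 using lmFit and eBayes of limma 3.58.1, with 4 residual degrees of freedom, with Benjamini-Hochberg adjustment over all genes within a contrast. Intervals are moderated 95% intervals, not adjusted. The fit was tested on simulated data with known changes.

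The members and lists were chosen with earlier results of these data known. Named genes are the 10 members, per list the called genes filled to 3 by the smallest F p, and the 3 genes of highest r for the 2 members with the smallest F p. The replicate numbers behaved as pairs: the differences between replicates correlated across genes between every 2 groups, from r = 0.20 to 0.51. The main fit left out this pairing, so the printed intervals and p-values treat the arrays as independent. With the replicate block, the average RU-486 effect of SLC1A3 had a limma adjusted p of 0.0852, against 0.112 in the main fit. For RU-486 against vehicle it was 0.466, against 0.608. Alternatives were the replicate block, leaving out each array, renewed quantile normalization, median centring, the mean of probe sets, a filter on dim genes, array weights and a level-dependent robust prior.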

Additional observations from a re-analysis of the deposited data

Results flagged for a closer look

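S100B, the member with the largest interaction, was flagged because its arrays moved in opposite directions under RU-486 in the 2 settings. It was higher in RU-486 alone, at 9.78 and 9.63, against 9.54 and 9.58 in vehicle, and lower in the combination, at 9.26 and 9.62, against 9.67 and 9.67 in progesterone. The interaction was -0.37 ± 0.18 log2 units (SE, interval from -0.79 to 0.05) and did not pass (limma adjusted p = 0.828, with 0.372 to 0.999 over 15 alternatives). Without combination replicate 1 it was -0.19. A change of sign between the 2 settings was not particular to S100B. The RU-486 differences without and with progesterone were 0.09 and -0.14 for ALDH1L1 and 0.19 and -0.01 for AQP4. They were -0.07 and 0.01 for NES and -0.01 and 0.02 for CD44.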

How the results depend on the processing

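The average RU-486 difference of SLC1A3 kept its direction in 15 alternatives and passed in 2. The tests of the other 9 members did not pass in any alternative run, with a smallest limma adjusted p of 0.156. The level call of 8 members above the background was 8 in every alternative run for it. The count of genes over the whole array was less stable. For the average RU-486 effect 6 genes were called with all arrays, 11 with median centring, 12 without dim genes, 43 with the robust prior, and 0 to 998 with single arrays left out, 998 being without progesterone replicate 1 and 0 without either vehicle, either combination or the second RU-486 array. For progesterone against vehicle the count was 0 to 1228 with single arrays left out, 1228 being without progesterone replicate 2. The F test called 4 genes with the robust prior, RU-486 against vehicle 3 with array weights, and the combination against vehicle 7 with array weights and 1 with the replicate block. The replicate block changed no call of a member. Of members near 0 for the average RU-486 effect, CD44 stood at -0.0097 with renewed quantile normalization. With single arrays left out CD44 ran from -0.034 to 0.046, S100B from -0.13 to 0.049, NES from -0.080 to 0.013 and ALDH1L1 from -0.10 to 0.056. The 40 member differences that the text does not print one by one changed sign in 51 of 613 recomputed values, which lay between -0.09 and 0.10. Leaving out both progesterone arrays, an alternative added after seeing the data, gave no call of a member against vehicle. AQP4 has no value under the filter on dim genes. The causes of these changes were not tested.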
